A study of Mus musculus with 192 samples.

Results

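Gap43 and Basp1 encode proteins of the axonal growth cone, and this section describes where their mRNAs lay in a brain section of the adult mouse divided into a grid of small cubes (voxels). The members were chosen by gene symbol from the array's annotation, with earlier results of these arrays known, in which Gap43 differed strongly between the ends of the grid. They are 2 genes of 15608 genes and unnamed clones tested. Gap43 was represented by 1 row of the value table and Basp1 by 2, of 20847 rows, and all 3 rows were measured on 192 of 192 arrays with 0 values at the lower limit of the ratio.

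GAP-43 sits on the inner face of the neuronal membrane through palmitoylated cysteines, binds calmodulin through an IQ motif, and is phosphorylated by protein kinase C. BASP1, also called CAP-23 or NAP-22, is attached by a myristate and binds calmodulin without an IQ motif. With MARCKS, they form a group of abundant proteins that gather the lipid PIP2 and shape the actin cytoskeleton beneath the membrane. Both are made in quantity by neurons that extend axons, and the adult brain keeps them in regions where synapses remain plastic. Most of their mRNA stays in the cell body while the proteins travel to axons and terminals, so an mRNA map shows where the cell bodies lie.

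Brains of male C57BL/6 mice at postnatal day 56, with no genotype or treatment named, were cut into voxels, each called by the letter of its row (A to G) and the number of its column (1 to 11). Each array compared RNA pooled from voxels of one position with RNA of whole brain, which is a common comparator and no group of its own. There were 192 arrays over 68 positions in 3 datasets harvested independently, 56 positions in all 3 datasets and 12 in 2 of them, with 59, 68 and 65 arrays in datasets 1, 2 and 3. The voxel RNA carried Cy3 in datasets 1 and 3 and Cy5 in dataset 2, the number of brains in a pool was not given, and the labels gave no anatomical names for rows or columns.

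The values are log2 ratios of voxel and whole brain that the authors had centred on each row's median over arrays, so a value of 0 is a gene's own middle and levels of different genes cannot be set against each other. The direction of the ratio was not stated. It was read as voxel over whole brain, which is likely only because the design names the voxel before whole brain. The maps of both genes ran the same way in the dataset with swapped dyes, which shows that all datasets share 1 orientation and not which one it is. With the other orientation, every high level here would be a low one and the sign of every difference would turn, while sizes and correlations would stay. In bulk voxels, fewer cells of a type and less RNA per cell cannot be told apart. Position levels are means over datasets ± SD, n = 3 unless given otherwise.

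Before the results, 1 stretch of the grid stands out. In dataset 2, row D, columns 1 to 7 ran against the other datasets for Gap43: its values there correlated at r = -0.48 over 7 positions with the means of datasets 1 and 3 as labelled, and at 0.95 when the column order was reversed. For Basp1 the same figures were 0.41 and 0.95, and for Nrgn -0.92 and 0.94. The 7 arrays were kept as labelled. Results on row D, on the middle columns and on patches of rows C-D are also given without them or with their order reversed, which leaves the row means as they are. Counts of positions, mirror pairs, correlations with further genes and some marker lists in the patches are given as labelled alone. Over all features, arrays of 1 dataset correlated at a median r of 0.17, the lowest pair at -0.57, and 0.676% of such pairs lay under -0.3. The highest r between any 2 arrays was 0.826. Missing values and values at the lower limit made up 2.06% of rows A-B arrays, 1.56% of rows C-E and 1.14% of rows F-G on average, and the spread of an array's values (median absolute deviation) was 0.30, 0.28 and 0.24. The part of these differences in the results was not tested.

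The Gap43 map was a gradient over the grid rows. Gap43 averaged 0.98 ± 0.16 in rows A-B and -0.51 ± 0.06 in rows F-G (n = 3 datasets each), a difference of 1.49 ± 0.21 on the log2 scale, or 2.81-fold. In rows A-B, the lowest of 47 arrays was 0.06, the median 0.91 and the highest 1.88, and in rows F-G the lowest of 48 arrays was -1.94, the median -0.50 and the highest 1.00. All 47 arrays of rows A-B lay above 0, against 5 of 48 in rows F-G, and the ranges overlapped because of those few high arrays. The difference was 1.70, 1.49 and 1.28 in datasets 1, 2 and 3. It is given without a test, because Gap43 was chosen with it known. In this contrast limma called 17 of 15608 features (0.109%). The calls were 4 features that rose in rows A-B (0.0256%) and 13 that fell (0.0833%), and the share at an unadjusted p under 0.05 was 9.03%.

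By row, Gap43 averaged 0.98 ± 0.29 in A, 0.94 ± 0.13 in B, 0.48 ± 0.15 in C, 0.03 ± 0.05 in D, -0.51 ± 0.10 in E, -0.47 ± 0.02 in F and -0.57 ± 0.09 in G. The step from row B to row C was 0.46 ± 0.15, that from C to D 0.45 ± 0.11 and that from D to F, the next in order, 0.51 ± 0.04, each larger than its SD and of 1 sign in all 3 datasets. Without the doubtful row D arrays, row D averaged -0.03 ± 0.07, the step from C to D was 0.51 ± 0.19 and that from D to F 0.44 ± 0.07, again of 1 sign in all datasets. Rows A and B did not differ beyond their spread, nor did rows F and E or E and G, so the map had a high plateau in A-B, a slope through C and D, and a low plateau in E-G. Grid rows accounted for 74.0% of the variance of the position means, and grid columns for 11.4%, or 71.9% and 15.0% with the doubtful arrays reversed. As labelled, no neighbours in the order of the column levels differed beyond their spread. Ranking 11 columns by level makes such steps small, so this does not show that columns were alike. Side by side on the grid, column 3 averaged -0.20 ± 0.08 and column 4 0.33 ± 0.03, with column 4 higher in all 3 datasets. For the mirror columns, 8 minus 9 was 0.16 ± 0.21, of 1 sign in 2 of 3 datasets.

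**Figure D1:**
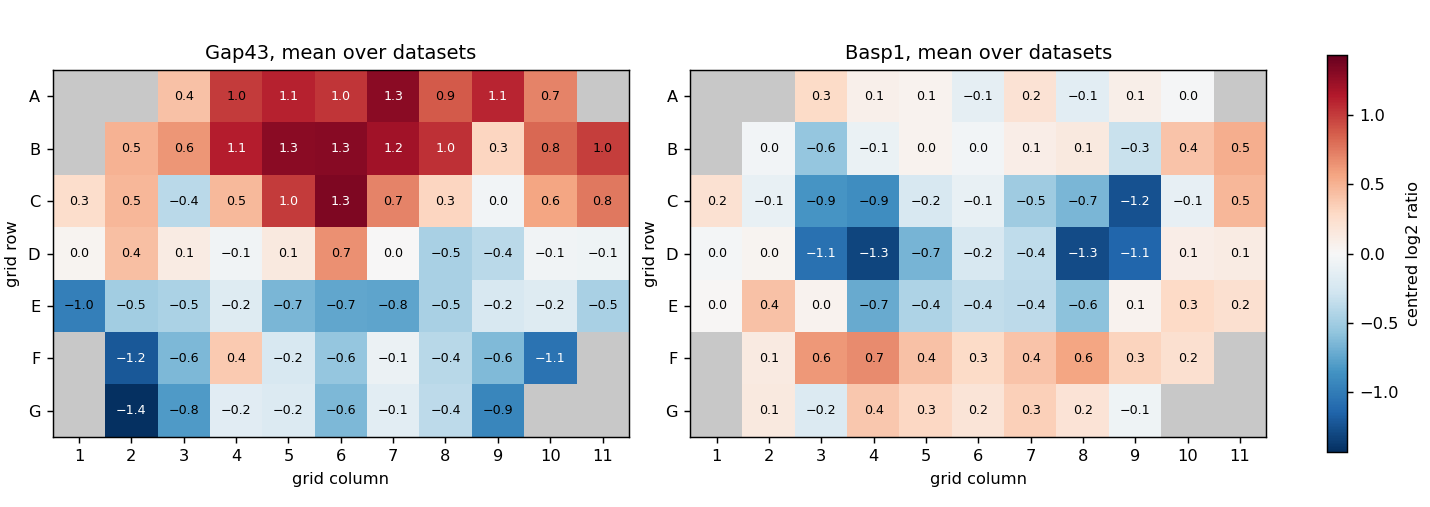
Mean centred log2 ratio over datasets at each grid position for Gap43 (left) and Basp1 (right), grid columns across and grid rows down, red above 0 and blue below 0, grey cells without an array analysed here. Gap43 is high in rows A-B and low in rows E-G. Basp1 is lowest in 2 patches of rows C-D, at columns 3-4 and 8-9, with low values also at D5, E4 and E8, and highest in row F.

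**Figure D2:**
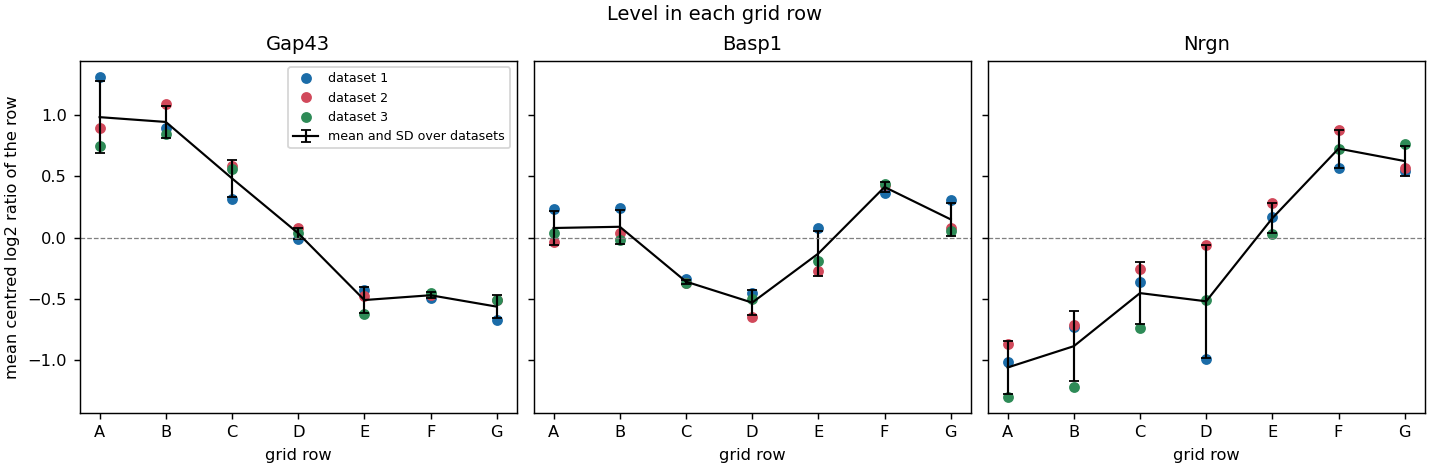
Mean centred log2 ratio of the arrays of each grid row, for Gap43, Basp1 and Nrgn, with 1 point per dataset and the mean and SD over the 3 datasets. Gap43 falls along the rows to -0.51 in row E, Basp1 is lowest in row D and highest in row F, and Nrgn runs opposite to Gap43.

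The highest Gap43 position was C6, in the middle column, with 0.90, 1.30 and 1.83 in datasets 1, 2 and 3 (1.34 ± 0.47). B6 followed with 0.76, 1.75 and 1.40 (1.30 ± 0.50), and B5 with 1.56 and 1.04 in datasets 2 and 3 (1.30 ± 0.37, n = 2). Their values overlapped, so the order among them is not firm. At the other end, G2 gave -1.94 and -0.93 in datasets 1 and 2 (-1.44 ± 0.71, n = 2), F2 gave -0.98, -1.24 and -1.42 (-1.21 ± 0.22), and F10 gave -1.14 and -0.98 in datasets 1 and 2 (-1.06 ± 0.11, n = 2). The low end therefore lay at the outer columns of rows F and G on both sides. Position E1, at the edge of row E, was also low, at -0.98 ± 0.26, as was G9 at -0.94 ± 0.16.

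One position stood apart from its row. F4 read 1.00, -0.15 and 0.28 (0.38 ± 0.58), with dataset 1 far above the others, while the other positions of rows F and G averaged below 0. Within rows F-G, Gap43 averaged lower in columns 2, 3, 9 and 10 than in columns 4 to 8 by 0.70 ± 0.18 (datasets 0.78, 0.49 and 0.82), a split chosen after the map was seen. Basp1 was also lower in those outer columns, by 0.23 ± 0.17. Marker lists moved with the same split in all 3 datasets: the myelin list was -0.43 ± 0.23 in the outer columns and -0.02 ± 0.32 in columns 4 to 8, a difference of -0.40 ± 0.17, and the choroid plexus list differed by -0.23 ± 0.05. The striatal list was 0.22 ± 0.06 higher in the outer columns, the striatal gene Ppp1r1b 0.39 ± 0.06 and the cerebellar list 0.14 ± 0.06, and their part in the Gap43 difference was not tested. In all datasets together, 27 positions were above 0 in each dataset that measured them, 23 below 0, and 18 mixed. The range of the position means was 2.78, and the median SD over datasets at a position was 0.30.

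The maps of Gap43 correlated between datasets at r = 0.74, 0.78 and 0.79 (datasets 1 and 2, 1 and 3, 2 and 3), and at 0.80, 0.78 and 0.87 without the doubtful row D arrays. Positions share the whole-brain comparator within a dataset, so these r values are a description. Over 29 mirror pairs of positions (column c and column 12 - c), position means correlated at 0.87. In the contrast of sides, Gap43 averaged 0.07 in columns 1-5 and 0.03 in columns 7-11. The difference was 0.04 ± 0.09 (limma, adjusted p = 0.969, of 1 sign in 2 of 3 datasets). This contrast compares side means alone, so it does not show whether the maps of the sides mirror each other. For that contrast limma called 0 of 15608 features, with 522 (3.34%) at an unadjusted p under 0.05.

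Gap43 was higher in the middle of the grid in every dataset, without passing the threshold. Columns 5-7 averaged 0.32 and columns 1-3 and 9-11 -0.07, a difference of 0.40 ± 0.08 (0.48, 0.32 and 0.39 in the datasets), 1.32-fold, with an adjusted p of 0.149 in limma. Without the doubtful row D arrays it was 0.46 ± 0.06 (limma, adjusted p = 0.0771), and with them reversed 0.48 ± 0.09 (limma, adjusted p = 0.0676). In this contrast, as labelled, limma called 0 of 15608 features and 2054 had an unadjusted p under 0.05, or 13.2%. Tested only among the genes with a value on every array, the same difference had an adjusted p of 0.0112 in limma. Gap43 was chosen with its differences among positions known, so its p-values in the contrasts of zones are descriptions only. The perimeter holds the 26 positions with a side open to the outside of the grid, and the interior the other 42 positions. Perimeter positions averaged 0.07 and interior positions 0.12, a difference of -0.04 ± 0.16 with signs mixed over datasets (limma, adjusted p = 0.863).

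Basp1 and 2 related genes have an entry in RefSeq's table of promoters (mouse build GRCm38.p6), and their 250 bases before the transcription start are printed because their maps are compared below. Basp1 lies on the minus strand at chr15:25413765-25414014, Marcksl1 on the plus strand at chr4:129513331-129513580 and Nrgn on the minus strand at chr9:37552746-37552995. Capitals mark the letters GGGCGG, the core of the GC box bound by SP1-type factors, on either strand. The window of Basp1 is 78.8% G or C and holds 4 such matches, of which the last pair overlap by the letters GG. That of Marcksl1 is 60.4% G or C with 0 matches, and that of Nrgn 58.4% with 1 match, against a median of 52.4% G or C over all 32851 promoters of the table. The motif is present in 32.7% of those promoters. TATAAA was in none of the 3 windows and in 12.4% of all promoters. These are matches of letters only.
Basp1: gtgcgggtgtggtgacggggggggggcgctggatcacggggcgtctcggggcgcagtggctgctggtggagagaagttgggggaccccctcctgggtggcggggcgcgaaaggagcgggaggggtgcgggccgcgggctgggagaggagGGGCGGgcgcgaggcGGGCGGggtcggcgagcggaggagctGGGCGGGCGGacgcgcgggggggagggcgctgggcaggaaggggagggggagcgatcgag
Marcksl1: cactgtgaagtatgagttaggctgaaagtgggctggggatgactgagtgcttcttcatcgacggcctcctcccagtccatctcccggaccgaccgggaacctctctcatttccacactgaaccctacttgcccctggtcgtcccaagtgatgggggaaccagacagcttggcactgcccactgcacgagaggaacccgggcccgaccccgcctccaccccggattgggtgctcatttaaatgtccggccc
Nrgn: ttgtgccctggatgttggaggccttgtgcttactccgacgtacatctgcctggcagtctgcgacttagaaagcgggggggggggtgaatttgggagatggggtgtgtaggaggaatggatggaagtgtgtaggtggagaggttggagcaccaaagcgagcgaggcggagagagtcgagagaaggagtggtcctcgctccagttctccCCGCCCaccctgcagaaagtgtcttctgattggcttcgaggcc

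The Basp1 map had another shape, with 2 deep patches in the middle rows and a crest in row F. By row, Basp1 averaged 0.08 ± 0.14 in A, 0.09 ± 0.14 in B, -0.36 ± 0.02 in C, -0.53 ± 0.10 in D, -0.13 ± 0.19 in E, 0.41 ± 0.04 in F and 0.15 ± 0.14 in G. In the order of the row levels, F, G, B, A, E, C and D, the pair B and A alone did not differ beyond its spread. Without the doubtful arrays, row D stayed the lowest at -0.53 ± 0.09, 0.17 ± 0.08 below row C. All 26 arrays of row F lay above 0, from 0.01 to 0.91. Grid rows accounted for 39.6% of the variance of the Basp1 position means and columns for 15.7%, or 35.8% and 17.1% without the doubtful arrays, which leaves more to single positions than for Gap43.

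The lowest Basp1 positions were D4, with -0.96, -1.24 and -1.76 (-1.32 ± 0.41), D8 (-1.29 ± 0.28, its highest array in dataset 2), and C9, with -0.94, -1.18 and -1.63 (-1.25 ± 0.35). D9 at -1.14 ± 0.21 and D3 at -1.07 ± 0.66 came next. With the doubtful arrays reversed, D3 was the lowest, at -1.34 ± 0.53. These positions form mirror-image patches on the 2 sides of the middle column. Positions beside the patches were low too, E4 at -0.73 ± 0.32, D5 at -0.67 ± 0.65 and E8 at -0.59 ± 0.39, beside -0.66 ± 0.45 at the patch position C8. The highest were F4, with 0.59, 0.53 and 0.91 (0.68 ± 0.20), F3, with 0.77, 0.66 and 0.43 (0.62 ± 0.17), and F8, with 0.44, 0.76 and 0.48 (0.56 ± 0.17), again on both sides of the grid. Over the 29 mirror pairs the Basp1 means correlated at 0.92. Maps of different datasets correlated at 0.70, 0.81 and 0.63, and at 0.69, 0.81 and 0.65 without the doubtful row D arrays.

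Both rows of the value table showed this map. They correlated at r = 0.60, 0.80 and 0.70 over the positions of datasets 1, 2 and 3 and at 0.85 over 68 position means. The lowest position was D4 (-1.16 ± 0.67) for the first row and C9 for the second, whose SD there was 0.55. The highest was F8 (0.66 ± 0.37) for the first and F4 (0.96 ± 0.37) for the second. The values given here are their mean.

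The patches were set against the rest of their rows, as a description, since the block was drawn after the map was seen. In rows C-D, Basp1 averaged -1.06 ± 0.27 in columns 3, 4, 8 and 9 and -0.09 ± 0.21 in the other columns. All 24 arrays of the patches lay below 0, from -1.83 to -0.22 with a median of -0.98, and 14 of 41 arrays of the other columns lay above 0. The difference was -0.93, -0.52 and -1.46 in datasets 1, 2 and 3, a mean of -0.97 ± 0.47, -1.002 ± 0.426 without the doubtful row D arrays and -1.02 ± 0.40 with them reversed. Gap43 was also lower there, at -0.06 ± 0.29 in the patches and 0.44 ± 0.09 in the other columns, a difference of -0.50 ± 0.34 (-0.71, -0.10 and -0.68), or -0.54 ± 0.27 without those arrays and -0.58 ± 0.19 with them reversed. As block means, both genes were thus lower at these columns, Basp1 by more. For Gap43, the other columns hold its high middle positions, such as C6 (1.34 ± 0.47). Single patch positions of Gap43 varied: C3 (-0.39 ± 0.17) and D8 (-0.47 ± 0.56) were low, while C4 (0.47 ± 0.32) was level with C2 (0.47 ± 0.30).

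**Figure D3:**
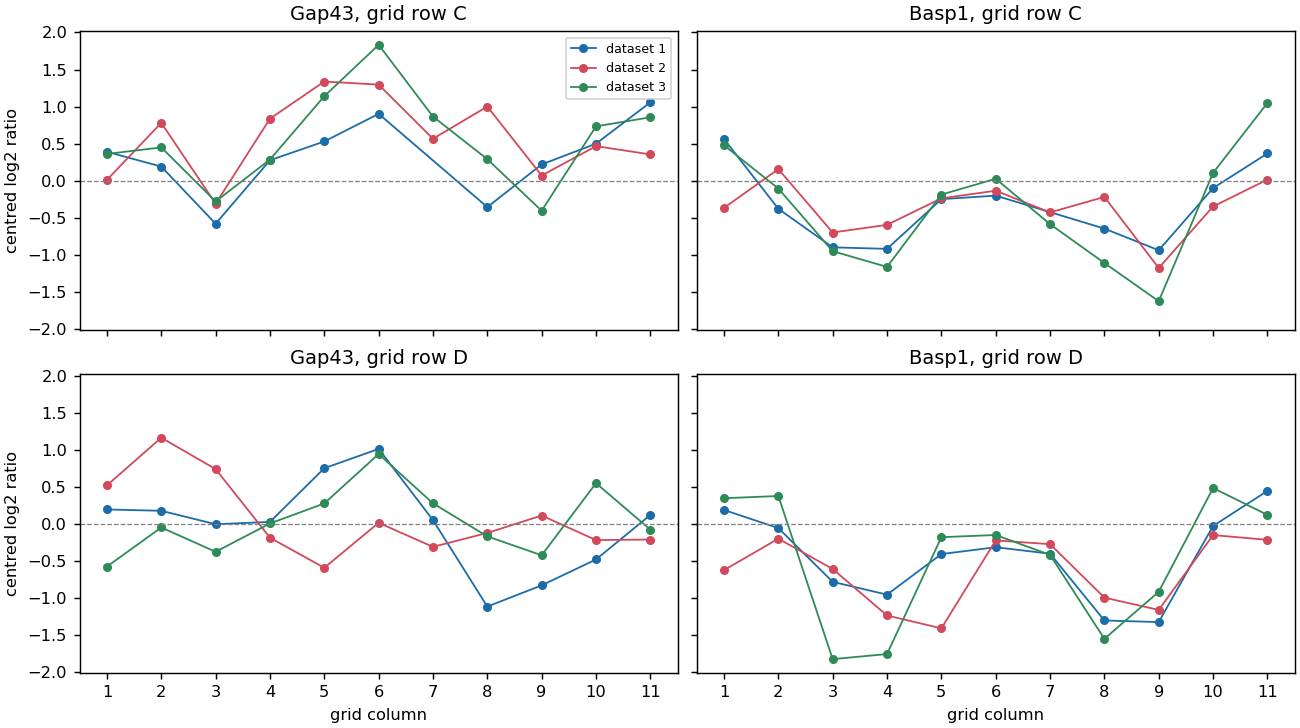
Centred log2 ratio across grid columns 1 to 11 in row C (top) and row D (bottom), for Gap43 (left) and Basp1 (right), 1 line per dataset. Averaged over datasets, Basp1 is lowest at columns 3-4 and 8-9 and Gap43 highest at column 6 in both rows, but single lines of Gap43 peak elsewhere, in row C at column 11 in dataset 1 and column 5 in dataset 2, and in row D at column 2 in dataset 2. In row D the line of dataset 2 departs from the other datasets over columns 1 to 7.

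Markers of tissue and cell types moved with these patterns. In the patches, the mean of the 7 measured striatal markers of 16 listed was 0.93 ± 0.26, and 0.18 ± 0.29 in the other columns of rows C-D, and the mean of 4 of 11 myelin markers was 0.64 ± 0.21 and -0.21 ± 0.14. Ppp1r1b, which encodes the striatal signalling protein DARPP-32, averaged 2.02 ± 0.42 in the patches and 0.30 ± 0.72 in the other columns. With the doubtful arrays reversed, the same pairs were 0.99 ± 0.25 and 0.14 ± 0.24 for the striatal list, 0.63 ± 0.21 and -0.20 ± 0.15 for the myelin list, and 2.15 ± 0.41 and 0.23 ± 0.61 for Ppp1r1b. Further lists also differed between patches and other columns beyond their spread, given as labelled alone. The cortical list differed by -0.55 ± 0.02, the astrocyte list by 0.25 ± 0.11, the hippocampal list by -0.31 ± 0.25 and the cerebellar list by -0.11 ± 0.08. The Basp1 map correlated over positions of different datasets at a mean r of -0.43 with the striatal list, -0.45 with the myelin list and 0.43 with the cortical list (3 of 10 measured). It also correlated at -0.33 with the thalamic list (4 of 6 measured) and -0.30 with the microglial list (1 of 6 measured). Gap43 correlated at -0.43 with the cortical list, 0.55 with the hypothalamic list (3 of 10 measured) and -0.04 with the striatal list. The cortical list averaged -0.71 ± 0.36 in rows A-B and 0.69 ± 0.13 in rows F-G, and the hypothalamic list 0.57 ± 0.06 and -0.19 ± 0.06. Further markers differed between these rows beyond their spread, A-B minus F-G. The striatal list differed by 0.20 ± 0.08, the hippocampal list by -0.21 ± 0.09 and the cerebellar list by 0.094 ± 0.091. Ppp1r1b differed by 0.39 ± 0.18 and Ttr, a gene of the choroid plexus list, by -0.62 ± 0.35. The part of cell composition in either gene's map was not tested. The hypothalamic list holds Ndn, which is also among the genes most like Gap43, and the cortical list holds Vxn, among those most like Basp1.

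Across the ends of the grid Basp1 differed little. It averaged 0.08 ± 0.13 in rows A-B and 0.29 ± 0.04 in rows F-G, a difference of -0.21 ± 0.10 (-0.10, -0.26 and -0.27 in the datasets). In rows A-B, its lowest of 47 arrays was -0.56, the median 0.06 and the highest 0.77, with 28 arrays above 0. In rows F-G the lowest of 48 arrays was -1.04, the median 0.33 and the highest 0.91, with 43 above 0, so the ranges overlapped almost throughout. The difference of Gap43 and Basp1 taken on the same array was 1.70 ± 0.14 larger in rows A-B than in rows F-G (1.80, 1.75 and 1.55).

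The genes also parted between the middle and outer columns and between the edge and the interior. The difference of Gap43 and Basp1 on the same array was 0.42 ± 0.11 larger in columns 5-7 than in columns 1-3 and 9-11 (0.53, 0.31 and 0.43), or 0.47 ± 0.05 without and 0.50 ± 0.06 with reversed row D arrays. Its perimeter minus interior value was -0.41 ± 0.06 (-0.35, -0.44 and -0.45). Basp1 averaged 0.15 at the perimeter and -0.22 in the interior, a difference of 0.37 ± 0.12 (0.48, 0.24 and 0.39), higher at the perimeter in 3 of 3 datasets but short of the threshold (limma, adjusted p = 0.205). Without the doubtful row D arrays the difference was 0.35 ± 0.15, and with them reversed 0.38 ± 0.11. In that contrast limma called 17 of 15608 features, 0.109%, all of them lower at the perimeter. Tested only among genes with a value on every array, the Basp1 difference had an adjusted p of 0.0263 in limma. Basp1 too was chosen with its differences among positions known, so its p-values in the contrasts of zones are descriptions only. Basp1 averaged -0.05 in columns 5-7 and -0.02 in columns 1-3 and 9-11, a difference of -0.03 ± 0.03 (limma, adjusted p = 0.874), and -0.01 ± 0.06 without the doubtful row D arrays. Its sides differed by -0.02 ± 0.12, columns 1-5 minus columns 7-11 (limma, adjusted p = 0.983).

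Set against each other over all positions, the 2 maps had almost no linear relation. On the same arrays r was 0.15, 0.04 and 0.17 in datasets 1, 2 and 3 (59, 68 and 65 positions), where the genes share a library and its labelling. Between arrays of different datasets r averaged 0.04 over 6 pairings, from -0.13 to 0.21, and over the 68 position means r was 0.04 and Spearman's rho -0.07. Both genes averaged above 0 at 14 positions, Gap43 alone at 20, Basp1 alone at 22 and neither at 12. Of the 22 positions with Basp1 alone above 0, 14 lay in rows F-G, 6 in row E and 2 in row D, whereas the 20 with Gap43 alone all lay in rows A-D. In the order of likeness to Gap43 over 8446 other genes with a symbol, Basp1 came at place 3203.

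Within the upper rows the maps did run together. In rows A-D alone, r was 0.67, 0.65 and 0.50 on the same arrays (32, 40 and 40 positions), averaged 0.45 between different datasets, from 0.24 to 0.63, and was 0.62 over 40 position means. Without the doubtful row D arrays the mean between different datasets was also 0.45. In rows E-G the mean between different datasets was 0.21, from 0.02 to 0.38. After each dataset's grid row means were subtracted from both genes, r over all 68 position means was 0.41 and the mean between different datasets 0.21, from -0.01 to 0.40. These subsets were chosen after the maps were seen. The relation in rows A-D held row levels that fell together. From row A to row D, Gap43 went from 0.98 to 0.03 and Basp1 from 0.08 to -0.53. The low overall r joined this to row levels that parted between the ends of the grid. Gap43 was above and Basp1 near 0 in rows A-B, and Gap43 below and Basp1 above 0 in row F.

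**Figure D4:**
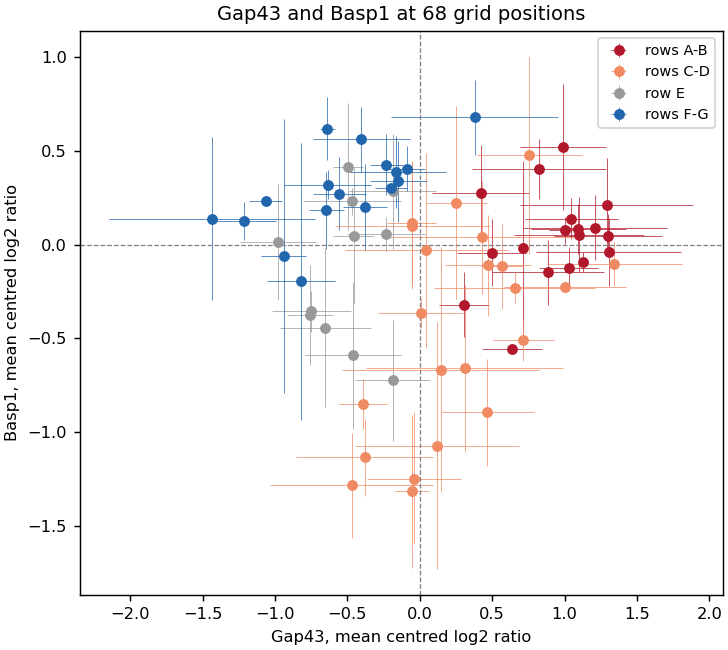
Basp1 (y axis) against Gap43 (x axis) at 68 grid positions, each a mean centred log2 ratio over datasets with SD bars, coloured by grid rows. Rows A-B lie to the right and rows F-G to the upper left, while rows C-D run from the lower middle to the upper right.

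Further genes of the MARCKS family and the IQ-motif relative Nrgn give these maps a context. Marcksl1 encodes the MARCKS-like protein that binds actin, calmodulin and PIP2. It averaged 0.73 ± 0.06 in rows A-B and -0.13 ± 0.02 in rows F-G, with 47 of 47 arrays above 0 in rows A-B and 10 of 48 in rows F-G. The difference was 0.90, 0.83 and 0.85 in the datasets, 0.86 ± 0.04, and did not pass the threshold (limma, adjusted p = 0.0877). Its 3 table rows gave differences of 1.03, 0.74 and 0.80. The highest array of rows F-G, 2.91 at G9 in dataset 3, stood apart from the values at that position in the other datasets, -0.03 and -0.10. Marcksl1 did differ among positions (limma F test, adjusted p = 3.91e-09), highest at B5 (0.98 ± 0.24, n = 2), and its map correlated between datasets at a mean r of 0.50 with Gap43 and 0.17 with Basp1.

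Marcks itself, which gave the family its name, passed neither test. It averaged 0.12 ± 0.10 in rows A-B and -0.06 ± 0.10 in rows F-G, a difference of 0.18 ± 0.08 (limma, adjusted p = 0.671), and did not pass the F test over positions (adjusted p = 0.23). Its maps correlated between datasets at only 0.13, 0.33 and 0.24. Nrgn encodes neurogranin, a postsynaptic protein that shares the IQ motif of GAP-43. It averaged -0.98 ± 0.25 in rows A-B and 0.68 ± 0.10 in rows F-G, with 4 of 47 and 48 of 48 arrays above 0, and fell by 1.65 ± 0.30 in rows A-B against rows F-G (3.15-fold, limma, adjusted p = 0.0349, lower in 3 of 3 datasets). The difference stayed between -1.93 and -1.47 under 12 alternatives, but the call was lost without dataset 1 (limma, adjusted p = 0.0767), without dataset 2 (0.577), with quantile normalization (0.0897) and with floor values kept (0.229). The Nrgn map correlated with Gap43 at a mean r of -0.52 between datasets, at place 8439 of 8446, and with Basp1 at 0.32, at place 55. In rows E-G alone, Basp1 and Nrgn correlated at 0.57, and Gap43 and Nrgn at 0.01.

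Gap43 had the third highest moderated F over positions of all features, 10.7, and Basp1 ranked 15 with 7.05. Limma called 768 of 15608 features in that test, 4.92%, and since earlier results of it led to the choice of both genes, nothing is read from their own calls. Of 62 growth cone genes listed, 39 were measured and 10 of these were called by the F test, 25.6%, with a median F of 1.40 in the list and 1.04 over all features. With dataset 1, 2 or 3 left out, 5, 1 and 4 list genes were called, so the count rests on all 3 datasets. Calls over all features fell too, from 768 to between 214 and 529. Whether the list lost a larger share of its calls was not tested. None of the 39 was called by limma in any of the 4 contrasts of zones. The median difference of rows A-B and F-G was -0.02 in the list and -0.02 over all features, with 18 of 39 genes above 0.

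The called growth cone genes did not share 1 map. Beside Marcksl1, Tubb2b, a beta-tubulin of young neurons, was 0.30 ± 0.13 higher in rows A-B and peaked at B7 (0.66 ± 0.31). Klf9, a transcription factor that restrains axon growth, was 0.84 ± 0.07 lower in rows A-B (limma, adjusted p = 0.103), highest at F4 (0.83 ± 0.29) and lowest at B5 (-1.07 ± 0.25, n = 2), and its map correlated at -0.50 with Gap43. Crmp1, a collapsin response mediator of semaphorin signals, was 0.60 ± 0.21 lower in rows A-B, and Nefl, the light neurofilament chain, 0.33 ± 0.11 lower. Neither passed the threshold for that contrast (limma, adjusted p = 0.277 and 0.488).

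Gprin1 and Stmn1 were closer to Basp1. Gprin1, which links G proteins to neurite outgrowth, was 0.49 ± 0.11 higher at the perimeter (0.41, 0.44 and 0.61, limma, adjusted p = 0.125) and correlated at 0.46 with Basp1 and 0.14 with Gap43. Stmn1, the tubulin-binding stathmin, correlated at 0.41 with Basp1 and 0.03 with Gap43, was lowest at C9 (-1.29 ± 0.42) and, unlike Basp1, was highest at C6 (1.02 ± 0.36). Its relative Stmn3 was lowest at E4 (-0.95 ± 0.23) and highest at F3 (0.59 ± 0.64). The membrane-to-actin linkers Ezr and Rdx peaked at E8 (0.80 ± 0.50) and C5 (0.93 ± 0.99), and Rdx correlated at -0.37 with Basp1. Among the growth cone genes that did not pass the F test, Dpysl2, Tubb3, Mapt, Cntn1, Cfl1, Pfn2 and Cap1 had adjusted p-values from 0.664 to 0.98 in limma.

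**Figure D5:**
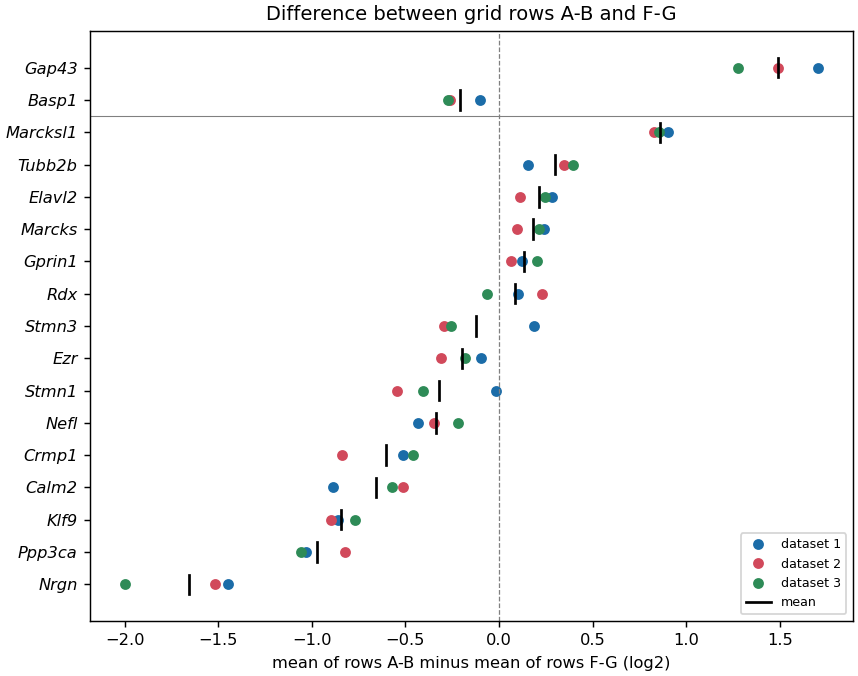
Mean of rows A-B minus mean of rows F-G on the log2 scale, 1 point per dataset and a bar at their mean, for Gap43 and Basp1 (top), for the list genes called by the F test over positions, and for Marcks. Gap43, Marcksl1, Tubb2b, Elavl2, Marcks and Gprin1 lie above 0 in all 3 datasets, Gap43 and Marcksl1 the farthest. Basp1 lies slightly below 0, and Ppp3ca and Nrgn at the low end.

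Of 32 regulators and relatives, 16 were measured and 4 were called by the F test, 25.0%, beside 4.92% of all features: Nrgn, Calm2, Ppp3ca and Elavl2. Without dataset 2 or dataset 3, 2 were called, and calls over all features fell from 768 to 214 and 529. Calm2, 1 of the 3 calmodulin genes and the only one measured, was 0.66 ± 0.20 lower in rows A-B (limma, adjusted p = 0.239), highest at F4 (0.73 ± 0.25) and lowest at A6 (-0.89 ± 0.25). Ppp3ca encodes the catalytic subunit of calcineurin, which dephosphorylates GAP-43. It was 0.97 ± 0.13 lower in rows A-B (-1.03, -0.82 and -1.06, limma, adjusted p = 0.0718), lowest at A6 (-1.69 ± 0.20), and correlated at -0.56 with Gap43 and -0.07 with Basp1. Neither gene passed the test for that contrast.

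Elavl2 belongs to the Hu family of RNA-binding proteins, of which a relative stabilises the Gap43 mRNA. It was highest at C5 (0.61 ± 0.81), 0.21 ± 0.09 higher in rows A-B (limma, adjusted p = 0.623), and correlated at 0.28 with Gap43. The remaining calcineurin and phosphatase subunits Ppp3cb, Ppp3r1 and Ppp2ca did not pass the F test, with adjusted p-values of 0.993, 0.248 and 0.836 in limma. Nor did the enzymes that attach or remove lipids: the myristoyltransferase Nmt1, the thioesterase Lypla1, and the palmitoyltransferases Zdhhc2, Zdhhc3 and Zdhhc7 (adjusted p from 0.715 to 0.995).

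The genes with maps most like Gap43 were ranked by the mean of 6 Pearson correlations, each between Gap43 in one dataset and the other gene in another, over 56 to 65 positions. The first 8 of 8446 were Timp2 (0.62), Bex2 (0.61), Ndn (0.60), Tmsb10 (0.59), Fxyd6, Bex4, Vat1l and Pgrmc1, the last at 0.55. Timp2, an inhibitor of matrix metalloproteinases, was highest at C6 (1.54), as Gap43 was, and its A-B minus F-G difference was 1.18 ± 0.27. Ndn, the imprinted gene of necdin, peaked at A5 (2.05) and Vat1l at B5 (1.67). At the other end stood Zbtb18 (-0.59), a transcription repressor of cortical neurons, Nfix, Chn1, Arc and Osbpl1a (-0.56), each 1.29 to 1.55 lower in rows A-B than in rows F-G. These r values are descriptive, since positions share a section and a comparator.

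The genes most like Basp1 were a different set of names. They were Pde1a (0.55), Pgm2l1 (0.50), Prkar1b (0.49), Gng3, Clstn1, Gprin1, Hk1 and Vxn (0.45). Pde1a is a calmodulin-dependent phosphodiesterase and, like Basp1, was lowest at D4 (-1.17), but was highest at G4 (1.32). Gng3, a neuronal G protein gamma subunit, was highest at F3 (0.62) and lowest at C3 (-1.02). The least like were Gatm (-0.54), an enzyme of creatine synthesis, Unc13c, Syndig1l, Nexn and Dbndd2 (-0.51). Syndig1l, a striatal marker of the list above, was highest at D9 (2.60) and Dbndd2 at D4 (1.04), 2 of the lowest positions of Basp1.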

How the data were processed

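RNA of mouse brain voxels was compared with whole-brain RNA on 2-colour arrays. The deposited table holds log2 ratios. That the authors centred them by row was read from the values: 99.9% of rows had a median within 0.001 of 0. The sources used here do not give the scanner, the background correction, the ratio's numerator or a genome build, nor signals that would show an array's precision. Values at a ratio of 0.01, 0.483% of the table, were treated as not measured, and 1.93% were missing. A row was kept where each dataset had it on 80% or more of its arrays. Each array was centred on its median (shifts up to 0.35), and rows with the same symbol were averaged. Of 20847 rows, 13164 carried 1 mouse symbol, 317 several, 7299 none, 47 a symbol of another species, and 20 were controls.

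Limma 3.58.1 (R 4.3.3) gave a moderated F test over positions with dataset as a block, and tests of zone differences computed within each dataset (n = 3), with Benjamini-Hochberg adjustment over all features and a threshold of 0.05. The labels call the datasets biological replicates, and arrays of 1 dataset deviated together from the position means (median r 0.24, against -0.12 between datasets). Deviations from a position mean sum to 0 over datasets, so the negative value follows from the positive one. The part of dye or handling in these deviations was not tested. "Beyond its spread" means larger than the SD and of 1 sign in all datasets. Members, gene lists and zones were chosen with earlier results of these data known. Named genes were the members, Nrgn, list genes called by a test, up to 8 further measured genes of each list, and the 8 most and 5 least alike genes. Scripts were tested on simulated data. Alternatives covered the block, array weights, centring, quantile normalization, floor values, completeness, single rows, the doubtful row D arrays, positions in all datasets and each dataset left out.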

Additional observations from a re-analysis of the deposited data

How the results depend on the processing

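The Gap43 difference of rows A-B and F-G stayed between 1.39 and 1.66 under the 11 alternatives run, and its sign did not change. The counts of all features were less stable. Without the replicate block (dataset), the F test called 366 features, array weights gave 2573, and quantile normalization 1161; leaving out dataset 1, 2 or 3 gave 314, 214 and 529. The growth cone list had 23 calls with array weights and 1 to 5 with a dataset left out, and the regulator list 7 and 2 to 3. For rows A-B against F-G, no replicate block gave 10 calls, quantile normalization 0 (1784 unadjusted), kept floor values 1, genes measured on every array 154, positions in all 3 datasets 32, and 1, 0 and 8 without dataset 1, 2 or 3 (1203 unadjusted where 0). For the middle columns the counts were 60 with quantile normalization, 201 with complete genes, 46 without and 47 with reversed row D arrays, 5 with positions in all 3 datasets, and 12, 31 and 0 without dataset 1, 2 or 3 (2073 unadjusted where 0). For the perimeter they were 0 with no replicate block (146 unadjusted), 56 with quantile normalization, 4 with floor values kept, 128 with complete genes, 30 with single rows, and 50, 0 and 6 without dataset 1, 2 or 3 (1670 unadjusted where 0). With complete genes fewer features are adjusted for. Gap43 in the middle columns (0.40, limma adjusted p = 0.0112) and Basp1 at the perimeter (0.37, limma adjusted p = 0.0263) then fell under the threshold. Their adjusted p was 0.0667 and 0.0617 or higher under the other alternatives. Both genes were chosen with their differences among positions known, so nothing is read from these p-values.

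Quantile normalization moved the Basp1 difference of rows A-B and F-G to -0.34 and that of Gap43 minus Basp1 to 2.00. Small differences changed sign: Basp1 by its second table row alone was 0.0234 in the middle columns and 0.011 between sides, and Gap43 at the perimeter was 0.0345 over positions in all 3 datasets and between sides -0.00122 without the row D arrays. With a dataset left out, sides ranged from -0.0103 to 0.086 for Gap43 and -0.0547 to 0.0534 for Basp1, and the Gap43 perimeter difference from -0.132 to 0.0299. The cause of these changes was not tested. The mean r of the 2 maps, 0.04, moved to 0.21 with grid row means subtracted (0.23 with row D of dataset 2 also reversed), 0.45 in rows A-D (0.45 without the row D arrays) and 0.21 in rows E-G, all chosen after seeing the data. The 15 other alternatives gave -0.04 to 0.10. With 3 datasets, and 2 at 12 positions, differences between single positions are limited by the spread of 0.30 for Gap43 and 0.20 for Basp1.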
